A study of Rattus norvegicus with 44 samples.

Results

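The 10 genes described here encode the lysosomal proteases of the cathepsin family together with legumain: Ctsa, Ctsb, Ctsc, Ctsd, Ctsh, Ctsk, Ctsl, Ctss, Ctsz and Lgmn. They were taken by symbol from a table of 32883 gene entries, where each stood on 1 entry, and all 10 were among the 13482 entries that passed the filter on low values (FPKM above 1 in at least 9 animals). FPKM is the number of fragments scaled to transcript length and library size, so that levels of different genes can be set side by side. RNA was sequenced from a piece of the right kidney of 44 obese male ZSF1 rats, a hybrid strain in which mutations of the leptin receptor give obesity, diabetes and progressive kidney disease. Every animal carried a telemetry device and received its feed, with or without drug, for 6 months starting at 22 weeks of age. In the first group 9 animals received Enalapril, an inhibitor of angiotensin-converting enzyme, at 3 mg/kg/day. In the second group 12 animals received Compound 1, a stimulator of soluble guanylyl cyclase, at 1 and later 3 mg/kg/day. A further 12 animals received both drugs (the combination), with 3 mg/kg/day of Enalapril and 1 mg/kg/day of Compound 1, and 11 animals received the feed without drug (Vehicle). Compound 1 was thus given at unequal doses alone and in the combination. There was no lean or untreated healthy group.

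Cathepsins are made as inactive precursors, sorted to endosomes and lysosomes by the mannose 6-phosphate receptors, and activated there in the acid lumen. Most of them are cysteine proteases (Ctsb, Ctsc, Ctsh, Ctsk, Ctsl, Ctss and Ctsz), whereas Ctsd is an aspartic protease and Ctsa a serine carboxypeptidase. Legumain is a separate cysteine protease that cuts after asparagine and trims several cathepsins to their mature chains. In the kidney, lysosomes of the proximal tubule degrade the proteins taken up from the filtrate, and macrophages hold a second large store of cathepsins. Ctss, which processes the invariant chain of MHC class II, is typical of antigen-presenting cells, and Ctsk, a strong collagenase, is best known from osteoclasts.

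Sequence around the start sites is shown for the members whose promoters held a searched motif, because transcription factors of lysosomal and of myeloid genes are known to read these letters. Promoters of RefSeq (assembly GRCr8, 250 bases before to 50 bases after the annotated start) were matched by symbol for 9 of the 10 members, Ctsb being the member without a match. The E-box CACGTG, the core of the element read by TFEB and TFE3, was searched on both strands and stood in 6.42% of 33469 promoters of the same length. Among the members it stood in that of Ctsd, where it occurred at 157 and again at 10 bases before the start. The motif GAGGAAGT, a site of the myeloid factor PU.1, was in 2.42% of promoters and in 2 of the 9, those of Ctsc (248 bases before the start) and Ctss (17 bases before the start). The AP-1 motif TGANTCA was in 7.33% of promoters and in 0 of the 9. These motifs do not overlap one another. In the following windows of 30 bases, written 5′ to 3′ along the gene, capitals mark the motif or its reverse complement.
Ctsd, chr1:206968961-206968990, minus strand: tctttcttccccCACGTGactcgcatccag
Ctsd, chr1:206968814-206968843, minus strand: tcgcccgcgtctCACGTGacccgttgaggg
Ctsc, chr1:151440799-151440828, plus strand: taACTTCCTCaggccacaggtaattctatc
Ctss, chr2:185775368-185775397, plus strand: aatgaaagttcACTTCCTCgttgtggatac
A match is a description of the letters, and binding was not measured. The deposited values were computed on another assembly, rn6, and no position of that build is used.

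Read totals cannot be had from FPKM, so depth is unknown in absolute terms and counting intervals are not given. Relative to the median library, the depth ran from 0.622 to 1.44 over the 44 libraries, with a median of 1.14 with Enalapril, 0.999 with Compound 1, 1.03 with the combination and 0.881 with Vehicle. Mitochondrially encoded mRNAs held 32.8 ± 5.90% of FPKM (SD) with Enalapril, 30.2 ± 3.96% with Compound 1, 32.1 ± 4.84% with the combination and 27.5 ± 5.38% with Vehicle. Tests were run with limma on log2(FPKM + 0.1), and p was adjusted over all tested genes. The words rose and fell are used of genes with an adjusted p under 0.05, and DEG of those that also had a fold change above 1.5 or under 0.66 (−0.60 on the log2 scale). Over all tested genes, the median log2 fold change was −0.15 for Enalapril against Vehicle, −0.07 for Compound 1 against Vehicle and −0.18 for the combination against Vehicle. Among the Vehicle animals 1003, 1004 and 1008 stood at the ends of several ranges. Animal 1003 had the highest Vehicle level of Ctsc, Ctsd, Ctss and Ctsz, and animal 1004 the lowest of Ctsa, Ctsc, Ctsl and Lgmn. Results against Vehicle are also given without 1003 and 1004. Animal 1008 had the lowest Vehicle level of Ctsd, Ctsh, Ctss and Ctsz. It was left out only in the fits that dropped 1 animal at a time.

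In Vehicle kidneys 6 of the 10 members were above 99.0% of tested genes by median level, Ctsc was above 95.4%, Ctss above 90.1%, Ctsz above 88.5% and Ctsk above 64.8%. Ctsb, an endopeptidase that can also act as a carboxypeptidase, had the highest level of the members, with a median of 1618 FPKM (range 1464 to 1870), which was above 99.8% of tested genes. Next came the endopeptidase Ctsl at 893 FPKM (584 to 989), Lgmn at 809.7 FPKM (525 to 874), Ctsd at 698 FPKM (493.1 to 955), the aminopeptidase Ctsh at 634 FPKM (549.7 to 703) and Ctsa, which also shields lysosomal β-galactosidase and neuraminidase from degradation, at 569 FPKM (443 to 619). The ranges of these 5 neighbours overlapped along the order. Within animals, Ctsl exceeded Lgmn in 11 of 11 Vehicle kidneys, Lgmn exceeded Ctsd in 9, Ctsd exceeded Ctsh in 9 and Ctsh exceeded Ctsa in 10. A lower tier followed with Ctsc, the dipeptidyl peptidase that activates granule proteases of immune cells, at 129 FPKM (70.6 to 156). Ctss had a median of 63.8 FPKM (45.9 to 85.6), the carboxypeptidase Ctsz 55.3 FPKM (39.6 to 78.6) and Ctsk 16.4 FPKM (15.4 to 29.9). Ctsz and Ctsk did not overlap in Vehicle, whereas Ctsc overlapped Ctss and Ctss overlapped Ctsz. The order was not the same in every group. By group median, Ctsd had rank 6 with Enalapril and with the combination, and rank 4 with Compound 1 and with Vehicle.

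**Figure D1:**
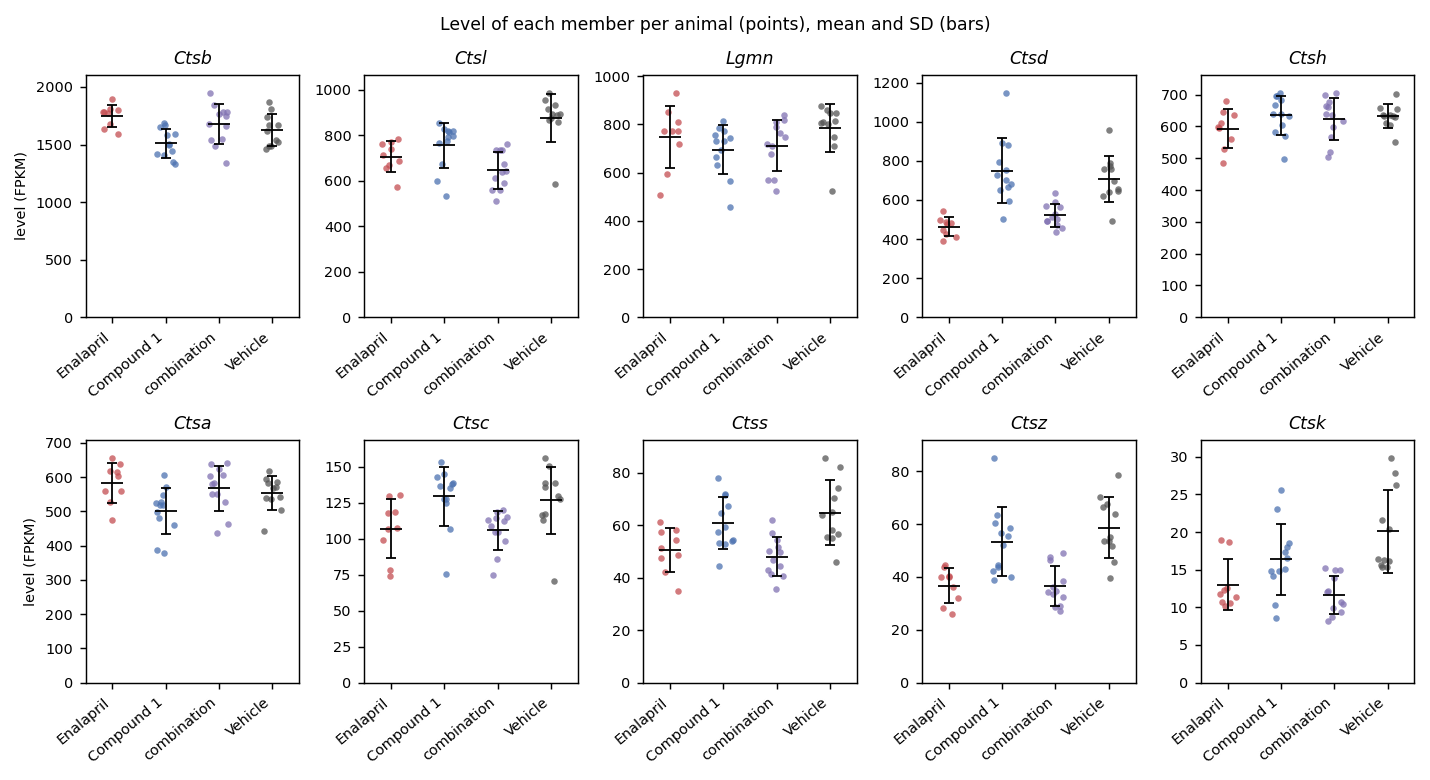
Level of each member in FPKM (vertical axes, starting at 0, each on its own scale) for each animal with Enalapril (n = 9), Compound 1 (n = 12), the combination (n = 12) and Vehicle (n = 11), with the mean and SD as black bars. Panels follow the order of Vehicle medians, and the Enalapril and combination points of Ctsd, Ctsz and Ctsk sit mostly below the Vehicle points, while those of Ctsb, Ctsa and Ctsh overlap them.

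The comparison of Enalapril with Vehicle asked which kidney transcripts changed with inhibition of angiotensin-converting enzyme. Ctsd, Ctsz and Ctsk were lower DEGs, Ctsl and Ctss fell by less than the fold threshold, and Ctsa, Ctsb, Ctsc, Ctsh and Lgmn did not pass the test. Thus 3 of the 10 members were lower DEGs, against 4.04% of all tested genes, and 5 of the 10 fell, against 26.6%. None was a higher DEG, against 0.49% of all tested genes, and none rose, against 3.57%. The median log2 fold change of the members was −0.28.

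Ctsd ran from 390.2 FPKM through a median of 479 to 545 FPKM with Enalapril, against 493.1, 698 and 955 FPKM with Vehicle. Of the 9 Enalapril kidneys, 7 lay below the lowest Vehicle kidney, animal 1008, so this count rests on that kidney. The log2 fold change was −0.60 (SE 0.09, adjusted p = 0.000197). Ctsz ran from 25.8 through 39.8 to 44.4 FPKM with Enalapril, against 39.6, 55.3 and 78.6 FPKM with Vehicle. All 9 Enalapril kidneys were below the Vehicle median and 4 of them below the lowest Vehicle kidney, again animal 1008. The difference was −0.67 on the log2 scale (SE 0.12, limma adjusted p = 0.000513). Ctsk ran from 10.2 through 11.7 to 18.9 FPKM with Enalapril, against 15.4, 16.4 and 29.9 FPKM with Vehicle. Here 7 of 9 Enalapril kidneys lay below every Vehicle kidney and the other 2 above the Vehicle median, and the log2 fold change was −0.61 (SE 0.15, adjusted p = 0.0041).

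Ctsl averaged 706 ± 67.6 FPKM (SD, n = 9) with Enalapril and 878 ± 105 FPKM (n = 11) with Vehicle, a difference of −0.31 on the log2 scale (SE 0.08, adjusted p = 0.00685 by limma). Ctss averaged 50.6 ± 8.39 FPKM with Enalapril and 64.8 ± 12.3 FPKM with Vehicle, a difference of −0.35 on the log2 scale (SE 0.11, adjusted p = 0.0204). Every Enalapril kidney was below the Vehicle median for both genes, yet the ranges overlapped. Ctsc averaged 107 ± 20.3 FPKM with Enalapril and 127 ± 23.2 FPKM with Vehicle, and its log2 fold change of −0.24 had an interval of −0.50 to 0.02 (adjusted p = 0.139). The other members that did not pass were closer together. The log2 fold change was 0.11 for Ctsb (95% interval −0.01 to 0.23), 0.08 for Ctsa (−0.06 to 0.21), −0.10 for Ctsh (−0.22 to 0.03) and −0.08 for Lgmn (−0.29 to 0.13), and the values of Ctsh and Lgmn became positive under scaling by median of ratios and by quantiles.

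All 3 DEGs lay close to the fold threshold. Leaving out any of 9 of the 20 animals took the DEG call from Ctsd and any of 7 from Ctsk, with adjusted p still under 0.05, and Ctsz kept it throughout. Under median-of-ratios scaling, which sets the median of all genes to 0.00, none was a DEG, but all 3 still fell by the adjusted p, with log2 fold changes of −0.45 for Ctsd, −0.46 for Ctsk and −0.52 for Ctsz, while Ctsa (0.23) and Ctsb (0.26) rose and Ctsl (−0.16, adjusted p = 0.157) and Ctss (−0.20, 0.205) did not pass. Without Vehicle animals 1003 and 1004 the log2 fold changes were −0.54 for Ctsd, −0.56 for Ctsk and −0.59 for Ctsz, with adjusted p of 0.00033, 0.0114 and 0.0013 and no DEG among them. Ctsc then fell by 0.30 on the log2 scale, with an adjusted p of 0.0329, and Ctss, at −0.29, no longer passed (0.0545). With a covariate for inner medulla markers (their mean), Ctsd (adjusted p = 0.0189) and Ctsz (0.0405) fell, and Ctsk (0.155), Ctsl (0.079) and Ctss (0.358) did not pass.

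The comparison of the combination with Vehicle asked the same of both drugs together, and it shares its Vehicle animals with the comparison above. Ctsk and Ctsz were lower DEGs, and Ctsc, Ctsd, Ctsl and Ctss fell by less than the fold threshold. So 2 of the 10 members were lower DEGs, against 6.39% of all tested genes, and 6 of the 10 fell, against 39.3%. None was a higher DEG, against 0.994%, and none rose, against 6.38%. The median log2 fold change of the members was −0.33.

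Ctsk ran from 8.12 through 11.4 to 15.2 FPKM with the combination, against 15.4, 16.4 and 29.9 FPKM with Vehicle. The groups did not overlap, but the gap was narrow (15.2 against 15.4 FPKM). How many of all tested genes were separated in this way was not counted, while 39.3% of all tested genes fell in this comparison. The log2 fold change of Ctsk was −0.76 (SE 0.13, limma adjusted p = 0.000131). Ctsz ran from 27.0 through 34.6 to 49.0 FPKM with the combination, against 39.6, 55.3 and 78.6 FPKM with Vehicle. Of the 12 combination kidneys, 9 lay below the lowest Vehicle kidney, animal 1008, and the log2 fold change was −0.69 (SE 0.11, limma adjusted p = 7.98e-05). Ctsl ran from 510.4 through 640.1 to 760.3 FPKM with the combination, against 584, 893 and 989 FPKM with Vehicle. The single low Vehicle kidney was animal 1004, and 12 of 12 combination kidneys were below the Vehicle median, with a difference of −0.44 on the log2 scale (SE 0.08, adjusted p = 0.000166). Ctsd ran from 434 through 508 to 635 FPKM with the combination, against 493.1, 698 and 955 FPKM with Vehicle, a difference of −0.43 on the log2 scale (SE 0.08, adjusted p = 0.0003). Ctss averaged 48.0 ± 7.51 FPKM (SD, n = 12) with the combination and 64.8 ± 12.3 FPKM (n = 11) with Vehicle, a difference of −0.42 on the log2 scale (SE 0.10, adjusted p = 0.00145).

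Ctsc was at the edge of the test, with 106 ± 13.6 FPKM with the combination, 127 ± 23.2 FPKM with Vehicle and an adjusted p of 0.0488. It lost the call when any of 18 of the 23 animals was left out, with an adjusted p of up to 0.0961. The members that did not pass were Lgmn with a log2 fold change of −0.15 (95% interval −0.33 to 0.03), Ctsb with 0.04 (−0.08 to 0.17), Ctsa with 0.03 (−0.10 to 0.17) and Ctsh with −0.02 (−0.14 to 0.09), and each of these signs turned under at least 1 scaling or choice of animals given in the closing section. Without Vehicle animals 1003 and 1004, Ctsk (−0.71) and Ctsz (−0.60) remained DEGs, and Lgmn fell by 0.20 with an adjusted p of 0.0394. Under median-of-ratios scaling no member was a DEG, Ctsd, Ctsk, Ctsl and Ctsz fell, and Ctss had an adjusted p of 0.0566.

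**Figure D2:**
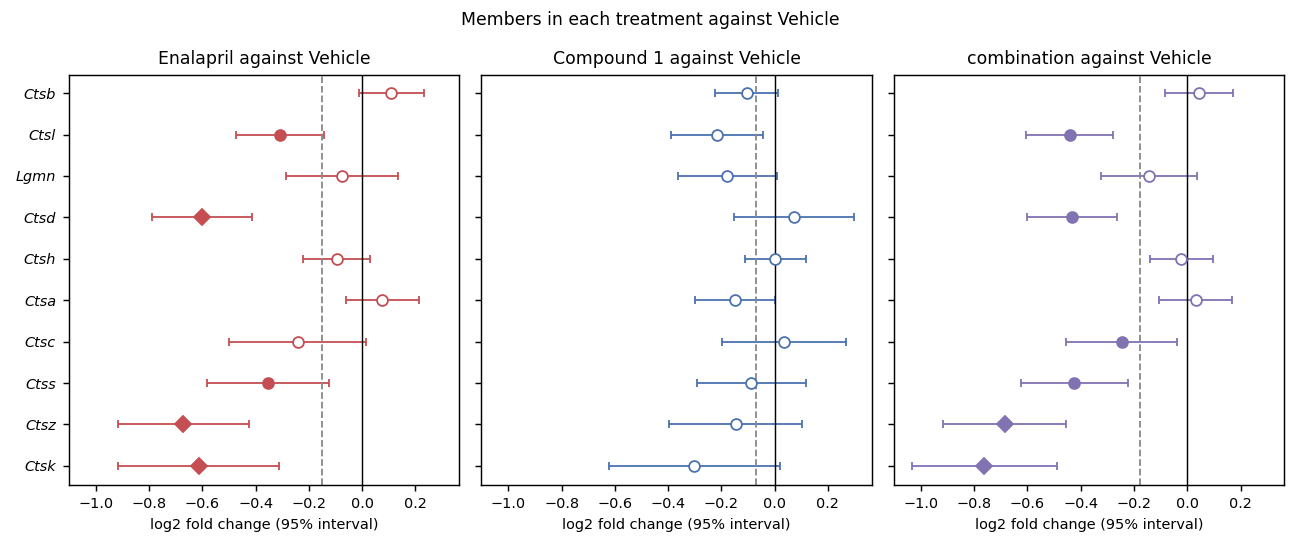
Log2 fold change of each member (horizontal axis) with its 95% interval for Enalapril, Compound 1 and the combination, each against Vehicle. Diamonds are DEGs, filled circles have an adjusted p under 0.05, open circles do not, and the dashed line is the median of all 13482 tested genes. Ctsd, Ctsz and Ctsk lie farthest left with Enalapril, and all symbols are open with Compound 1.

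Compound 1 alone was compared with Vehicle to read the part of the guanylyl cyclase stimulator. No member passed the test. None of the 10 was a lower DEG, against 0.156% of all tested genes, none fell, against 0.341%, and none rose, against 0.134%, and at an unadjusted p under 0.05 there was 1, Ctsl. Ctsl averaged 756 ± 100.2 FPKM (SD, n = 12) with Compound 1 and 878 ± 105 FPKM (n = 11) with Vehicle, a difference of −0.22 on the log2 scale (SE 0.08, 95% interval −0.39 to −0.04, limma adjusted p = 0.281), and all 12 Compound 1 kidneys lay below the Vehicle median. With sample weights in the fit this adjusted p was 0.0466. Ctsk averaged 16.4 ± 4.72 FPKM with Compound 1 and 20.1 ± 5.52 FPKM with Vehicle, and its log2 fold change of −0.30 had the widest interval of the members, −0.62 to 0.02. Ctsd averaged 750.1 ± 167 FPKM with Compound 1 and 708 ± 119 FPKM with Vehicle, a log2 fold change of 0.07 with an interval of −0.15 to 0.30. For Ctsz the log2 fold change was −0.15 (−0.40 to 0.10), for Ctss −0.09 (−0.29 to 0.12), for Lgmn −0.18 (−0.36 to 0.01), for Ctsa −0.15 (−0.30 to 0.0013), for Ctsb −0.11 (−0.22 to 0.01), for Ctsc 0.04 (−0.20 to 0.27) and for Ctsh 0.0022 (−0.11 to 0.12). The log2 fold changes seen with Enalapril lie within these intervals for Ctsl and Ctsk, and outside them for Ctsd, Ctss and Ctsz. This placement leaves out the error of the Enalapril values. In the direct comparison of both drugs, described next, Ctss did not pass (log2 fold change −0.26, limma adjusted p = 0.0857).

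Enalapril was also set directly against Compound 1, in a fit of all 4 groups. Ctsd was a lower DEG, against 1.89% of all tested genes, with a difference of −0.67 on the log2 scale (SE 0.10, adjusted p = 1.7e-05), and leaving out any of the 21 animals kept this call. Its Enalapril kidneys reached 545 FPKM at most, against a Compound 1 median of 717 FPKM and a Compound 1 range of 505 to 1149 FPKM. Ctsz was the other member that fell (log2 fold change −0.52, SE 0.13, adjusted p = 0.00459), which made 2 of 10 against 10.9% of all tested genes. Ctsb (0.22, SE 0.06, adjusted p = 0.011) and Ctsa (0.22, SE 0.08, adjusted p = 0.0389) rose, 2 of 10 against 2.6% of all tested genes. Ctsb averaged 1749.9 ± 94.99 FPKM (SD, n = 9) with Enalapril and 1509.7 ± 125 FPKM (n = 12) with Compound 1. Ctsa averaged 583 ± 57.9 FPKM with Enalapril and 502 ± 67.9 FPKM with Compound 1, and its call was lost when any of 10 of the 21 animals was left out, with an adjusted p of up to 0.0888. The Ctsd call as a DEG was lost under median-of-ratios scaling, quantile normalization and the inner medulla covariate, with log2 fold changes of −0.59, −0.59 and −0.49.

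The combination against Compound 1 asked what changed when Enalapril was added to Compound 1, although the dose of Compound 1 also differed. No member was a DEG. Ctsz (log2 fold change −0.54, adjusted p = 0.00162), Ctsd (−0.50, 0.000388), Ctsk (−0.46, 0.019), Ctss (−0.34, 0.0123), Ctsc (−0.28, 0.0487) and Ctsl (−0.22, 0.0307) fell, 6 of 10 against 17.4% of all tested genes. Ctsb rose (0.15, adjusted p = 0.0418), 1 of 10 against 4.72% of all tested genes. The calls of Ctsb, Ctsc and Ctsl were lost when any of 15, 17 and 7 of the 24 animals was left out. The combination against Enalapril asked what changed when Compound 1 was added to Enalapril. No member passed by limma, with adjusted p from 0.555 to 0.995 and none at an unadjusted p under 0.05, where 0.0223% of all tested genes rose and 0.0297% fell. Ctsd had the largest value, a log2 fold change of 0.17 with an interval of −0.03 to 0.37, and the intervals were −0.46 to 0.16 for Ctsk and −0.27 to 0.24 for Ctsz. The interaction asks whether the combination departed from the sum of both drugs on the log2 scale. That sum takes Compound 1 at 1 and later 3 mg/kg/day, whereas the combination held it at 1 mg/kg/day, so dose and departure cannot be told apart. The interaction passed for none of the members (limma adjusted p from 0.986 to 0.996, none at an unadjusted p under 0.05). Of all tested genes 0.00742% passed above 0 and 0% below it. The 95% interval of the interaction was widest for Ctsk (−0.28 to 0.58), and was −0.12 to 0.20 for Ctsb and −0.11 to 0.25 for Ctsh.

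The make-up of the cathepsin mRNA pool was also described. The 10 members summed to 5051 ± 411 FPKM (SD, n = 9) with Enalapril, 5108 ± 425 FPKM (n = 12) with Compound 1, 4948 ± 444 FPKM (n = 12) with the combination and 5450.4 ± 313 FPKM (n = 11) with Vehicle. A member's share of this sum does not depend on the scaling of the library. Ctsd held 8.42 to 9.98% of the sum in the Enalapril kidneys and 9.99 to 16.8% in the Vehicle kidneys. These ranges almost touched, and how often the shares of other genes would be separated in this way was not counted. Its mean share was 9.14 ± 0.424% with Enalapril, 14.7 ± 2.87% with Compound 1, 10.6 ± 1.23% with the combination and 12.97 ± 1.98% with Vehicle. Ctsb held 34.8 ± 1.91% with Enalapril, 29.7 ± 3.04% with Compound 1, 33.9 ± 2.05% with the combination and 29.9 ± 2.72% with Vehicle, and the ranges overlapped. Ctsl held 14.0 ± 0.766% with Enalapril, 14.8 ± 0.991% with Compound 1, 13.1 ± 1.35% with the combination and 16.1 ± 1.64% with Vehicle. These shares are given without a test.

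Members also varied together from animal to animal. Correlations were taken over the 44 animals after removing each group's mean of log2(FPKM + 0.1), and p came from 100000 permutations within groups, adjusted over the 45 pairs. Of these pairs 27 had an adjusted p under 0.05. Ctsd and Ctsz were the closest pair, with a Pearson r of 0.89 and a Spearman rho of 0.91 (permutation adjusted p = 6.4e-05 and 7.5e-05), and r was 0.87 with Enalapril, 0.93 with Compound 1, 0.85 with the combination and 0.96 with Vehicle. Ctss joined them, with r = 0.82 to Ctsz (rho 0.82) and 0.75 to Ctsd (rho 0.78). Ctsk was looser, with r = 0.54 to both, and under median-of-ratios scaling these values became 0.31 to Ctsz and 0.22 to Ctsd and no longer passed.

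High r was also found among Lgmn, Ctsa, Ctsc and Ctsl. Lgmn had r = 0.86 with Ctsc (rho 0.60), 0.85 with Ctsa (rho 0.78) and 0.78 with Ctsl (rho 0.60), and Ctsc had r = 0.84 with Ctsl (rho 0.69). For Ctsa with Ctsc r was 0.55, but rho was 0.28 and did not pass (adjusted permutation p = 0.095). Single kidneys were low for several of these genes at once, and the rank correlations were below r. Animal 1004 was the lowest Vehicle kidney for all of Ctsa, Ctsc, Ctsl and Lgmn. Animal 3105 was the lowest Compound 1 kidney for Ctsc, Ctsl and Lgmn, and also for Ctsh. Animal 2001 was the lowest Enalapril kidney for all 4, but also for Ctsb, Ctsd and Ctsz, so it was not low for this set alone. With Enalapril r was 0.95 for Ctsc with Ctsz and 0.81 for Ctsd with Lgmn, against 0.05 and 0.09 with Vehicle. Leaving out the 2 farthest animals gave 0.79 for Ctsc with Lgmn, 0.81 for Ctsa with Lgmn, 0.67 for Ctsl with Lgmn and 0.72 for Ctsc with Ctsl. Each of these 4 pairs and the pairs of Ctsd, Ctsz and Ctss had the smallest p that the permutations can give, 1e-05. Several of these genes were also related to Ctsd and Ctsz. Ctsc had r = 0.42 with Ctsz (rho 0.62) and 0.39 with Ctsd (rho 0.62), and Ctsl had 0.38 with Ctsz (rho 0.51) and 0.36 with Ctsd (rho 0.50), each with an adjusted permutation p under 0.05. These rank correlations of Ctsc were as high as those of Lgmn with Ctsc and Ctsl. For Ctsa r was 0.0028 with Ctsz and −0.12 with Ctsd, although Ctsa and Ctsz had r = 0.88 with Enalapril, −0.30 with Compound 1, 0.25 with the combination and −0.52 with Vehicle. Ctsb and Ctsk ran in opposite directions (r = −0.42, rho −0.41, adjusted permutation p = 0.011), and without the 2 farthest animals r was −0.42. By group it was −0.03 with Enalapril, −0.60 with Compound 1, −0.25 with the combination and −0.65 with Vehicle.

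**Figure D3:**
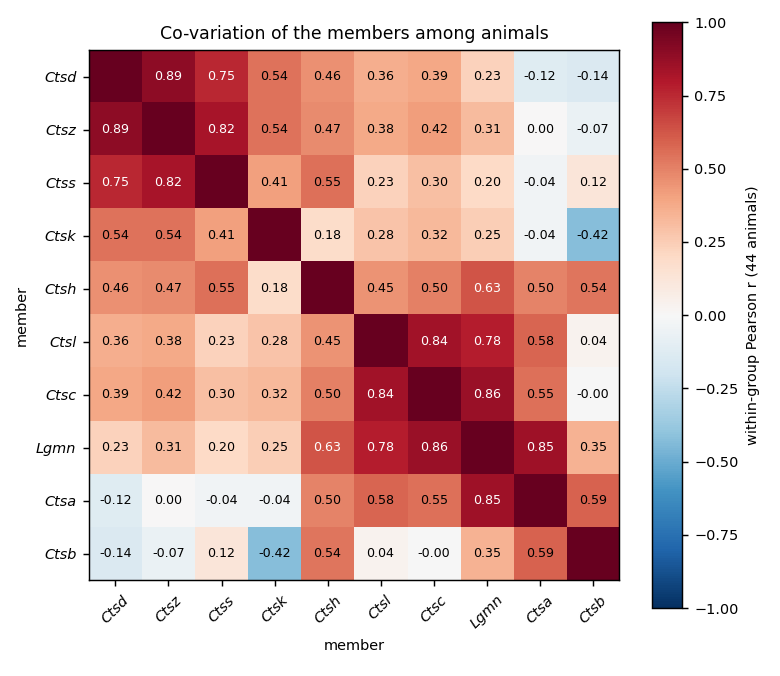
Pearson r between the members over 44 animals after removing group means, written in each cell and coloured from −1 (blue) to 1 (red). Ctsd, Ctsz and Ctss form a block at 0.75 to 0.89, and the pairs of Ctsl, Ctsc, Lgmn and Ctsa lie at 0.55 to 0.86.

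Kidney tissue holds many cell types, and in bulk RNA fewer cells of a type and less RNA per cell cannot be told apart. Defining markers of the labelled tissue were present, among them all 15 proximal tubule markers. Of all tested genes, 26.6% fell and 3.57% rose with Enalapril, and 39.3% fell and 6.38% rose with the combination. Lower DEGs made up 4.04% and 6.39% of them, and higher DEGs 0.49% and 0.994%. Of 19 macrophage and monocyte markers, 17 fell with Enalapril (7 DEGs), 18 fell with the combination (11 DEGs) and none passed with Compound 1 (2 at an unadjusted p under 0.05 by limma). Their summed level ran from 862 to 1641 FPKM with Enalapril, from 1088 to 2397 FPKM with Compound 1, from 954 to 1592 FPKM with the combination and from 1345 to 2626 FPKM with Vehicle, and all 19 passed the filter on low values. Cd68, itself a lysosomal membrane protein of macrophages, averaged 28.4 ± 4.27 FPKM (SD, n = 9) with Enalapril, 28.9 ± 6.91 FPKM (n = 12) with the combination and 45.5 ± 10.7 FPKM (n = 11) with Vehicle. Cd14, a receptor for bacterial lipopolysaccharide, fell by 0.67 with Enalapril and by 0.79 with the combination on the log2 scale, and the integrin Itgam fell by 0.69 and 0.80. Of 15 proximal tubule markers, 12 rose with Enalapril and 13 with the combination (3 DEGs each), and none passed with Compound 1 (2 at an unadjusted p under 0.05). Their summed level ran from 5657 to 7364 FPKM with Enalapril, from 2256 to 6750 FPKM with Compound 1, from 5425 to 7226 FPKM with the combination and from 3175 to 5841 FPKM with Vehicle. The gluconeogenic enzyme Pck1 rose by 0.62 and 0.59, and the amino acid transporter Slc7a13 by 0.84 and 0.82, with Enalapril and with the combination. Of 9 fibroblast markers, 7 fell with Enalapril (5 DEGs) and 8 with the combination (4 DEGs), and Col1a1, a chain of type I collagen, fell by 0.77 and 0.71. The summed level of the 9 ran from 200.4 to 372 FPKM with Enalapril, from 252 to 514 FPKM with Compound 1, from 223 to 366 FPKM with the combination and from 324 to 542 FPKM with Vehicle. With the inner medulla covariate 5 macrophage markers, 2 fibroblast markers and 0 proximal tubule markers passed with Enalapril, and 17 macrophage markers, 4 fibroblast markers and 9 proximal tubule markers passed with the combination. The part of these cell types in the changes of Ctsd, Ctsz, Ctsk, Ctss and Ctsl was not tested.

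Within groups, the members differed in how they followed the macrophage and the proximal tubule markers, and 13 of 20 such relations had an adjusted permutation p under 0.05. How the means of these 2 lists relate to each other was not examined, so the relations may not be separate. The other marker lists were not set against the members in this way. With the mean log2 level of the 19 macrophage and monocyte markers, r was 0.91 for Ctsd (rho 0.90), 0.89 for Ctsz (rho 0.90), 0.83 for Ctss (rho 0.83) and 0.70 for Ctsk (rho 0.67), each with an adjusted permutation p of 4e-05. These relations were present in every group, where r was 0.87 to 0.96 for Ctsd, 0.85 to 0.93 for Ctsz, 0.80 to 0.87 for Ctss and 0.58 to 0.77 for Ctsk. Without the 2 farthest animals they were 0.89, 0.89, 0.82 and 0.64. The values of Ctsh (0.47), Ctsc (0.45) and Ctsl (0.45) also passed, but under median-of-ratios scaling they were 0.29, 0.27 and 0.23 and did not. Lgmn had r = 0.29, Ctsa −0.06 and Ctsb −0.18, and none of these passed.

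With the mean log2 level of the 15 proximal tubule markers, Ctsa had the highest r, 0.73 (rho 0.67, adjusted permutation p = 4e-05), at 0.75 to 0.83 within each group. Lgmn followed with 0.44 (rho 0.39, adjusted permutation p = 0.0081) and Ctsb with 0.37 (rho 0.37, adjusted permutation p = 0.022), whose r was 0.25 without the 2 farthest animals. By group, r of Ctsb was 0.11 with Enalapril, 0.75 with Compound 1, 0.41 with the combination and 0.03 with Vehicle. Ctsd had r = −0.68 (rho −0.57, adjusted permutation p = 6.7e-05), Ctss −0.56 (rho −0.55) and Ctsz −0.55 (rho −0.49). Without the 2 farthest animals r was weaker, at −0.49 for Ctsd, −0.46 for Ctss and −0.37 for Ctsz. These negative values were not uniform. For Ctsd r was 0.14 with Enalapril, −0.82 with Compound 1, −0.37 with the combination and −0.77 with Vehicle, and for Ctsz it was 0.52 with Enalapril and −0.83 with Vehicle. For Ctss it was 0.08 with Enalapril, −0.75 with Compound 1, −0.25 with the combination and −0.81 with Vehicle. Under median-of-ratios scaling r was −0.64 for Ctsd, −0.55 for Ctsz and −0.38 for Ctss, all still passing, and Ctsh had 0.29, against −0.02 on FPKM, and did not pass on either scale.

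**Figure D4:**
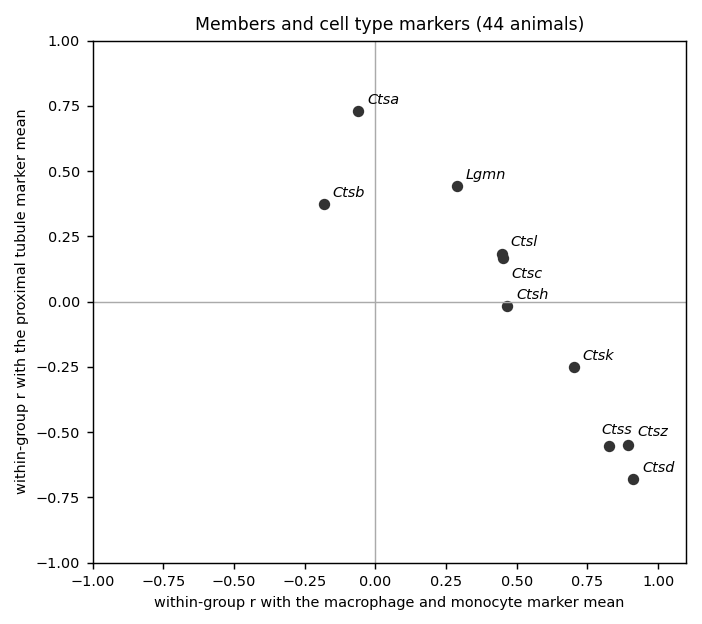
For each member, Pearson r over 44 animals, after removing group means, with the mean log2 level of 19 macrophage and monocyte markers (horizontal axis) and of 15 proximal tubule markers (vertical axis). Ctsd, Ctsz and Ctss lie at the lower right (0.83 to 0.91 and −0.68 to −0.55), and Ctsa lies at the top (−0.06 and 0.73).

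Other lysosomal genes were counted beside the 26.6% of all tested genes that fell with Enalapril and the 39.3% that fell with the combination. Of 30 other glycosidases, sulfatases, lipid hydrolases and lipid-handling proteins, 8 fell and none rose with Enalapril. With the combination 8 fell and 3 rose, and none was a DEG in either comparison. The falling share was thus near that of all tested genes with Enalapril and below it with the combination. The 8 with Enalapril include Gm2a, the activator protein of ganglioside breakdown, which averaged 68.2 ± 8.97 FPKM (SD, n = 9) with Enalapril, 70.1 ± 10.4 FPKM (n = 12) with the combination and 98.3 ± 15.5 FPKM (n = 11) with Vehicle. They also include Gusb (β-glucuronidase), with log2 fold changes of −0.42 and −0.40, and the cholesterol carrier Npc2, with −0.37 and −0.38. The median log2 fold change of the 30 was −0.09 with Enalapril and −0.07 with the combination. Of 17 genes listed as lysosomal membrane proteins, which include the soluble galectin Lgals3, 6 fell in each comparison. Of these 17, 1 rose with Enalapril and 2 with the combination. With Enalapril 2 of the 17 were lower DEGs, against 4.04% of all tested genes, and with the combination 1, against 6.39%. Lgals3, a galectin that binds damaged lysosomes, was a lower DEG in both (−0.63 and −0.66). Laptm5, a lysosomal protein of blood cells, was a lower DEG with Enalapril (−0.64), with −0.56 and no DEG call with the combination. In the direct comparison of the combination with Enalapril 0.0223% of all tested genes rose and 0.0297% fell, and the value of Laptm5 there is not given here. Of 8 other lysosomal proteases and activators, 2 fell with Enalapril and 4 with the combination, among them Ppt1, a thioesterase (−0.30 and −0.31), and Ifi30, a thiol reductase of antigen processing (−0.27 and −0.24). Prcp, a prolylcarboxypeptidase that can cleave angiotensin II, was a lower DEG with the combination (−0.71, adjusted p = 0.003) and had a log2 fold change of −0.49 with Enalapril (adjusted p = 0.0827).

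Beside the lists around the proteases, 26.6% of all tested genes fell, 3.57% rose and 4.04% were lower DEGs with Enalapril. With the combination these shares were 39.3%, 6.38% and 6.39%. Of 16 subunits of the proton pump that acidifies lysosomes, none passed with Enalapril (5 at an unadjusted p under 0.05 by limma), and 3 rose and 2 fell with the combination by log2 fold changes of at most 0.21 for Atp6v0d1 and −0.19 for Atp6ap1. Of 10 genes of the TFEB family and its control, 1 fell with Enalapril, Tfe3 (−0.30), and 2 with the combination, Tfe3 (−0.22) and Tfeb (−0.20). Of 11 sorting genes, 1 fell with Enalapril, Sort1 (−0.23), and 3 with the combination, including M6pr, a mannose 6-phosphate receptor (−0.25). Of 18 autophagy genes, 2 fell with Enalapril and 4 with the combination, none of them a DEG. The falling shares of the proton pump, TFEB, sorting and autophagy lists were below those of all tested genes in both comparisons. Of 5 tested cystatins, which are inhibitors of cysteine cathepsins, 1 fell with Enalapril and 3 with the combination, and Cst7 was a lower DEG in both comparisons. It averaged 3.81 ± 1.20 FPKM (SD, n = 9) with Enalapril, 4.10 ± 1.45 FPKM (n = 12) with the combination and 6.92 ± 1.55 FPKM (n = 11) with Vehicle. Cst3, the abundant cystatin C, averaged 749 ± 107 FPKM with Enalapril, 732 ± 111 FPKM with the combination and 855 ± 88.4 FPKM with Vehicle, and fell with the combination (−0.23, adjusted p = 0.0215) but did not pass with Enalapril (−0.20, adjusted p = 0.0799). Of 5 tested genes of further cathepsins and cathepsin-like proteins, 3 fell and 1 rose with Enalapril and 3 fell with the combination. Ctsw, a cathepsin of cytotoxic lymphocytes, was a lower DEG in both comparisons (−0.79 and −0.74). Ctse, an aspartic protease, also fell in both (−0.51 and −0.76, the second a DEG), as did Ctsf (−0.20 and −0.13), although Ctsf turned to 0.046 with the combination under median-of-ratios scaling. The 1 that rose with Enalapril was Tinag (0.34), a cathepsin-like protein of tubular basement membrane and not a cathepsin. With Compound 1 no gene of these lysosomal lists passed by limma, with 0 to 5 genes of a list at an unadjusted p under 0.05. Directions within these lists depended on scaling. Under median-of-ratios scaling, 3 genes of the hydrolase list fell and 4 rose with Enalapril, and 6 fell and 9 rose with the combination. Of the membrane list 2 fell and 5 rose with Enalapril, and 2 fell and 4 rose with the combination. On that scale 7 proton pump subunits rose in each of the comparisons while none fell.

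For the 6 members that fell with Enalapril or with the combination, the most similar profiles were sought among the 13429 other tested symbols by the within-group r over 44 animals. Ctsd was most like Clu, encoding the secreted chaperone clusterin (r 0.95, rho 0.92), and Anxa5, encoding annexin A5 (0.94, 0.92). Ctsz was most like Gm2a (0.92, 0.90) and Efhd2, encoding a calcium-binding protein (0.91, 0.91). Ctss was most like C1qb, a subunit of complement C1q (0.88, 0.87), and Psme2, a subunit of the proteasome activator (0.86, 0.89). Ctsk was most like Csf1, the growth factor of macrophages (0.88, 0.87), and Mxra8 (0.87, 0.85). Ctsl was most like Impad1 (0.88, 0.80) and Cisd2 (0.88, 0.77), and Ctsc was most like Tspan3 (0.94, 0.82) and Rpl4, a ribosomal protein (0.94, 0.87). All these points share library scaling, and no test is attached to them.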

How the data were processed

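There were 44 animals with 1 library each, unpaired between groups. The authors deposited FPKM per gene entry, computed on build rn6 per the labels. The aligner, the counting program and how reads shared by paralogs were assigned: not given in the sources used here. Library preparation kept strand and selected mRNA. The study's own fits used counts, which FPKM are not, so no count model was used here. Empty columns, 2 in all, were left out.

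FPKM were turned into log2(FPKM + 0.1), which understates changes of low genes, and fitted by limma (version 3.58.1, R version 4.3.3) allowing a mean-variance trend. Entries needed FPKM above 1 in at least 9 animals. Each treatment was fitted against Vehicle on both groups alone, and the other comparisons came from a fit of all 4 groups, with Benjamini-Hochberg adjustment over 13482 entries. The test was tried on simulated data. Relative depth was read from the ratios of low FPKM values. Correlations used numpy 2.4.6 and scipy 1.17.1, two-sided.

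The members, gene lists and tests were chosen with earlier results of these data known. Named beside the members are up to 4 genes of each list per treatment with an adjusted p under 0.05, by size of change, or some of these, and the 2 most similar genes of each member that fell. Cst3, Prcp and Pck1 were also named for the other treatment. The lists were other cathepsins, cystatins, 3 lists of lysosomal enzymes and membrane proteins, sorting, the proton pump, the TFEB family, autophagy and 11 lists of cell type markers. As alternatives, the pseudocount was set to 1 or 0.01, the filter to none or FPKM above 5, and the others were median-of-ratios and quantile scaling, no fold threshold, sample weights, an inner medulla covariate, sets of animals left out, each animal left out, and other animals in the fit.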

Additional observations from a re-analysis of the deposited data

How the results depend on the processing

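The calls of members turned on the fold threshold and on scaling. With Enalapril against Vehicle, the 3 lower DEGs became 0 under median-of-ratios scaling, quantile normalization, the inner medulla covariate, sample weights and without Vehicle animals 1003 and 1004, 2 with a pseudocount of 1, 1 to 3 when 1 animal was left out, and 5 with no fold threshold. Leaving out any of 9 animals lost the DEG call of Ctsd (Vehicle 1002, 1003, 1004, 1006 and 1007, Enalapril 2001, 2005, 2008 and 2010) and any of 7 that of Ctsk (Vehicle 1001, 1003 and 1007, Enalapril 2001, 2007, 2008 and 2010), always with an adjusted p still under 0.05, and Ctsz kept it in each case. The 5 members that fell became 3 under median-of-ratios scaling, 4 under quantile normalization and 2 with the covariate, and 2 rose under median-of-ratios scaling and 1 under quantile normalization. Without Vehicle 1004 Ctsc passed (adjusted p = 0.0158). With the combination against Vehicle, the 2 lower DEGs became 0 under median-of-ratios scaling, 1 under quantile normalization, 1 with the covariate and 6 with no fold threshold, and without Vehicle 1004 Lgmn passed (0.0293). With Compound 1 against Vehicle, 1 member fell with sample weights.

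With the combination against Compound 1, 1 member was a lower DEG without the 6 animals listed last, and 6 were lower and 1 higher with no fold threshold. The 6 that fell became 3 under median-of-ratios scaling and 1 with the covariate. The 1 that rose became 0 with no filter, the covariate, without the 6 animals listed last, without animals 2103 and 3102 to 3105 and with other animals in the fit, 2 under median-of-ratios scaling, sample weights and without Vehicle animals 1003 and 1004, and 0 to 2 when 1 animal was left out. With Enalapril against Compound 1, the lower DEG became 0 under both scalings and the covariate, and 2 without the 6 animals listed last and with no fold threshold, where 2 were also higher. The 2 that fell became 4 with sample weights and 1 with the covariate, and the 2 that rose became 1 with no filter, without either of those sets of animals and with other animals in the fit, 0 with the covariate and 1 to 2 when 1 animal was left out.

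Signs turned for members near 0. With Enalapril against Vehicle, Ctsh was 0.057 under median-of-ratios scaling and 0.0049 under quantile normalization, and Lgmn 0.077 and 0.041. With the combination against Vehicle, median-of-ratios scaling gave 0.15 for Ctsh, 0.028 for Lgmn and 0.046 for Ctsf, quantile normalization −0.060 for Ctsb and 0.031 for Ctsh, sample weights 0.015 for Ctsh, the covariate −0.013 for Ctsa, and the fit without Vehicle animals 1003 and 1004 −0.018 for Ctsa. That fit gave −0.018 for Ctsc with Compound 1. With the combination against Enalapril, Ctsz was 0.0058 under median-of-ratios scaling, 0.018 without the 6 animals listed last and 0.0047 without animals 2103 and 3102 to 3105. Leaving out 1 animal gave −0.046 to 0.10 for Ctsc and −0.018 to 0.033 for Ctsh with Compound 1, −0.043 to 0.0041 for Ctsh with the combination, and −0.074 to 0.023 for Ctsz in the combination against Enalapril.

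Of the 45 pairs of members, 20 passed under median-of-ratios scaling and 30 without Vehicle animals 1003 and 1004. Median-of-ratios scaling turned r to 0.052 for Ctsa with Ctss, −0.084 for Ctsa with Ctsz, 0.10 for Ctsb with Ctsc, 0.0071 for Ctsb with Ctsd, −0.0019 for Ctsc with Ctsk, −0.24 for Ctsh with Ctsk, −0.16 for Ctsk with Ctsl, −0.085 for Ctsk with Lgmn and 0.29 for Ctsh with proximal tubule markers. Without Vehicle animals 1003 and 1004 r was 0.0052 for Ctsa with Ctsk, 0.046 for Ctsa with Ctss and 0.062 for Ctsb with Ctsc. Of the lists, 17 falling macrophage markers with Enalapril became 14 under median-of-ratios scaling and 5 with the covariate, and 18 with the combination became 16 and 17. The causes of these changes were not tested. No paired analysis was possible because animals of different groups share no number. Relative depth, not read totals, was known.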

Other observations

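Other immune lists moved in the same comparisons as the members that fell. Of all tested genes, 26.6% fell, 3.57% rose and 4.04% were lower DEGs with Enalapril. With the combination these shares were 39.3%, 6.38% and 6.39%. The shares with Compound 1 were 0.341% falling and 0.134% rising. Of 10 dendritic cell and MHC class II markers, 8 fell with Enalapril (1 DEG) and 9 with the combination (2 DEGs), and RT1-Db1, a class II chain, had log2 fold changes of −0.72 and −0.66. Of 10 T and B cell markers, 7 fell with Enalapril (5 DEGs) and 9 with the combination (7 DEGs), and Cd3e, a subunit of the T cell receptor complex, had −0.66 and −0.65. Of 4 tested osteoclast markers, Tnfrsf11a fell in both comparisons (−0.53 and −0.57) and Calcr with the combination (−0.43). The others passed in neither, and Calcr was near the filter, at 1.22 FPKM with the combination and 1.63 FPKM with Vehicle. The osteoclast list summed to 92.1 ± 10.2 FPKM (SD) with Enalapril, 91.1 ± 8.33 FPKM with the combination and 90.4 ± 9.09 FPKM with Vehicle. Of 9 distal tubule and thick ascending limb markers, none passed (1 at an unadjusted p under 0.05 by limma) with Enalapril, and 2 rose and 1 fell with the combination. Of 12 collecting duct markers, 1 rose and 1 fell with Enalapril, and 2 rose and 1 fell with the combination. Of 6 inner medulla markers 2 fell in each comparison, near the falling shares of all tested genes. Of 7 endothelial markers, 2 rose and 2 fell with Enalapril and 1 rose with the combination, and 1 rose with Compound 1, the single change among all these markers in that group. Of 6 podocyte markers, 2 rose with Enalapril and 1 fell with the combination. In the Enalapril group of 9 animals no member had a single kidney that stood apart by Dixon's test (10 values tested), and the larger groups were not tested.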
